A study of Mus musculus with 514 samples.

Results

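The transient early 2-cell peak genes are 200 of the 55168 named genes in a mouse RNA-seq series of single oocytes and embryos: their messages were scarce in the mature egg, high in the early 2-cell embryo and scarce again in the late 2-cell embryo. They were chosen by the group means of log2(TPM + 1), where TPM, a transcript level corrected for length, comes from the authors. A member had a mean of at least 4 in the early 2-cell control group E2C mz_Nrpp, stood at least 3 above the oocyte group OoMII_Nrpp and at least 3 above the late 2-cell group L2C z_NrHet. Of 232 genes past these thresholds, 16 of the Zscan4, Tdpoz, Usp17l, Obox, Zfp352 and Tcstv families were left out, and the 200 with the largest rise were kept of the 216 that remained. The last genes inside that limit were 9930038B18Rik with a rise of 3.13, Heatr5b with 3.12 and Gm10324 with 3.12, and the first outside were Il12rb2 with 3.10, Trp53inp2 with 3.10 and Aldh1a2 with 3.10. The peak itself was therefore the selection and is no finding in those 3 groups.

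The study asked what the orphan nuclear receptors Nr5a2 and Esrrb do when the embryonic genome is switched on. Each tube held 1 mouse oocyte or embryo, and 263 full-length libraries fall into 22 groups. Oocytes at metaphase II (OoMII) carried wild-type or floxed alleles (Nrpp, 9 oocytes), a heterozygous Nr5a2 deletion (NrHet, 18) or an Nr5a2 knockout (NrKO, 12). Early 2-cell (E2C) embryos were the wild-type or floxed mz_Nrpp (21), the Nr5a2-heterozygous mz_NrHet (29), the maternal-zygotic Nr5a2 knockout mz_NrKO (22), the maternal knockout m_NrKO (18) and the zygotic knockout z_NrKO (12). At the later stages, late 2-cell (L2C), then 4-cell (4C), then 8-cell (8C), embryos were heterozygous for both receptors (mz_DHet: 7, 6 and 21 embryos), or maternal-zygotic knockouts of Nr5a2 (mz_NrKO: 10, 5 and 10), of Esrrb (mz_EKO: 10, 4 and 10) or of both (mz_DKO: 6, 10 and 10). L2C also had 7 z_NrHet and 6 z_NrKO embryos, heterozygous for Nr5a2 or with a zygotic Nr5a2 knockout. All controls after the mz_Nrpp group thus carry a deleted Nr5a2 allele, and the mz_DHet controls a deleted Esrrb allele too; the Cre driver and strain are not given in the sources used here, nor whether littermates were used.

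The number of reads per library is unknown, because the files hold only TPM; 10655 to 15971 genes were above 1 TPM per library. The Nr5a2 level of the whole gene does not check the labels: its lowest, median and highest values were 57.6, 84.4 and 125 TPM in E2C mz_NrHet and 41.2, 79.6 and 122 TPM in E2C mz_NrKO, and the deleted part cannot be seen in a gene-level value. Esrrb had a median of 48.7 TPM in 8C mz_DHet, 20.3 TPM in mz_EKO and 26.6 TPM in mz_DKO. E2C mz_NrKO replicate 1 stands apart, with a summed TPM of the members of 3239 against a group median of 19483, and with Esrrb at 1253 TPM where the next highest embryo of its group had 31.7 TPM. Markers of blood (5 genes) and sperm (5 genes) had a median of 0 in every oocyte and E2C group, 6 to 9 of 10 cumulus and granulosa markers did too, and 3 of 4 oviduct markers; the exception among these was Ovgp1. All 8 measured markers of oocyte and embryo had medians above 0.

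Zygotic genome activation is the step at which the embryo begins to transcribe its own genome while the messages stored in the egg decay. In the mouse its main wave falls within the 2-cell stage, and an early part of it is a short burst of genes that are silent at most other times, many of them young, tandemly copied families and their pseudogenes. Dux, here under the symbol Duxf3, is a homeobox factor known to activate many genes of that burst, and Nr5a2 is an orphan nuclear receptor that binds an extended half-site, TCAAGGTCA or TCAAGGCCA. Obox homeobox factors, whose own genes were left out of the members, read sites of the bicoid type, GGATTA.

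The regulatory sequence before the start of the gene is shown for members from both ends of the results. Eif4a3l1, Gm21293 and Gm4027 were lower in embryos without maternal and zygotic Nr5a2, and Slc30a3, the member with the highest mean level, was not. Each line holds the 250 bases before the RefSeq start on the gene's strand, 5′ to 3′, in build GRCm38.p6: chr6:136327289-136327538 (plus strand) for Eif4a3l1, chr10:104142737-104142986 (plus strand) for Gm21293, chr12:87618659-87618908 (plus strand) for Gm4027 and chr5:31108245-31108494 (minus strand) for Slc30a3. Capitals mark GGATTA or, for the opposite strand, TAATCC.
Eif4a3l1: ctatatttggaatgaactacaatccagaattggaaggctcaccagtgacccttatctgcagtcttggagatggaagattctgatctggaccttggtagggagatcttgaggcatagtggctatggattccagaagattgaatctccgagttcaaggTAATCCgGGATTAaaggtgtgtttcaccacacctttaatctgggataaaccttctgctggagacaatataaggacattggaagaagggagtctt
Gm21293: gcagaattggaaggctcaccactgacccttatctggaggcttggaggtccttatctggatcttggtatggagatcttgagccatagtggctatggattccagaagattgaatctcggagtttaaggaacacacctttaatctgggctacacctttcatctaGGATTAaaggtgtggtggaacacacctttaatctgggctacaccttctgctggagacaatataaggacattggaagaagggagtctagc
Gm4027: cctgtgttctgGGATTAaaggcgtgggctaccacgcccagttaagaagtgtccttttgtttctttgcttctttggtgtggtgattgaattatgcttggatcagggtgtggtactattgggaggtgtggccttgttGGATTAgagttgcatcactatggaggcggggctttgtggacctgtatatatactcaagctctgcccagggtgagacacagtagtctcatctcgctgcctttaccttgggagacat
Slc30a3: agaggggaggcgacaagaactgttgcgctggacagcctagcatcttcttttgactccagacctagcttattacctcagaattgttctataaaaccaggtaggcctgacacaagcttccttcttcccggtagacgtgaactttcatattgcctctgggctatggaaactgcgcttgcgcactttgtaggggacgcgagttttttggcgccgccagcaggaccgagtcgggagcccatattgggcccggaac
The Eif4a3l1 and Gm21293 windows, on different chromosomes, share an identical run of 45 bases. Gm4027, also lower, shares at most 11 bases with Eif4a3l1 and 10 with Gm21293. The longest run shared by Slc30a3 with any of these 3 is 9 bases. RefSeq held a window of 250 bases before and 50 after the start for 100 of the 200 members. GGATTA, searched on both strands, lay in 19 of these 100 windows and in 7.06% of all 32851 windows. It lay in 12 of the 18 windows of members from the position clusters described next, or 66.7%, although these 12 windows hold only 8 different sequences. Outside the clusters 7 of 82 windows (8.54%) held it. Split by the test instead, GGATTA lay in 10 of 18 windows (55.6%) of members called lower in E2C mz_NrKO. These 10 windows hold 7 different sequences. For members not called it lay in 9 of 82 windows (11%). The sequences printed above are therefore examples, and they do not stand for all lowered members or for all others. CCAAT, the NF-Y box, lay in 14 of 18 cluster windows (77.8%), which hold 9 different sequences, and in 37.4% of all windows. The extended half-sites TCAAGGTCA and TCAAGGCCA lay in 0 of the 100 member windows and in 0.423% and 0.591% of all windows. The shorter half-site AGGTCA lay in 14% of member windows and 16.3% of all. The letters GGATTA also occur in the B1 family of short interspersed repeats; repeats were not annotated here, and whether a match lies in one was not tested.

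Predicted genes, clones and pseudogenes make up 108, and 92 have other symbols. Where the annotation gives a class, 130 are protein coding, 18 processed pseudogenes and 12 lincRNAs. Of the 192 members with a position, 50 lie in 8 groups of at least 3 members spaced less than 1000000 bases apart. The clusters hold 10 members on chromosome 5, 8 and 5 on chromosome 4, 7, 6 and 3 on chromosome 10, 7 on chromosome 12 and 4 on chromosome 7. The cluster of 5 on chromosome 4 (chr4:143535954-143951016) contains Pramef25, of the PRAME family, and BC080695. That of 7 on chromosome 12 (chr12:87480108-88324026) contains Gm4027, Gm2016, Gm2022 and Gm5039, copies related to the translation initiation factor Eif1a. That of 3 on chromosome 10 (chr10:58222972-58232675) is Duxf3 with Gm10807 and AW822073. Some clusters hold copies of 1 gene family, between which the authors' counting could split or share reads; sequence identity was not measured here. In all, 9 entries fall into 4 sets with the same values in every library, so the members hold 195 distinct profiles. Values of single copies are uncertain for this reason.

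In E2C mz_NrHet, Slc30a3, a zinc transporter of vesicles, averaged 1238 TPM (SD 209.9, n = 29 embryos), G6pdx, which opens the pentose phosphate pathway, 1204 TPM, and Mff, the mitochondrial fission factor, 1204 TPM (SD 178, n = 29). Dync1i2, a dynein subunit, Rnf24, a RING finger protein, and Pik3cd, a catalytic subunit of phosphoinositide 3-kinase, averaged 701, 413 and 381 TPM. Pabpc1l, the poly(A)-binding protein of oocytes, Dym, a Golgi protein, the small GTPase Rras2 and the microRNA entry Mir7035 averaged 326, 313, 302 and 291 TPM. The highest predicted members were AU015836, A730082K24Rik and Gm50056, with 814, 710 and 504 TPM.

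**Figure D1:**
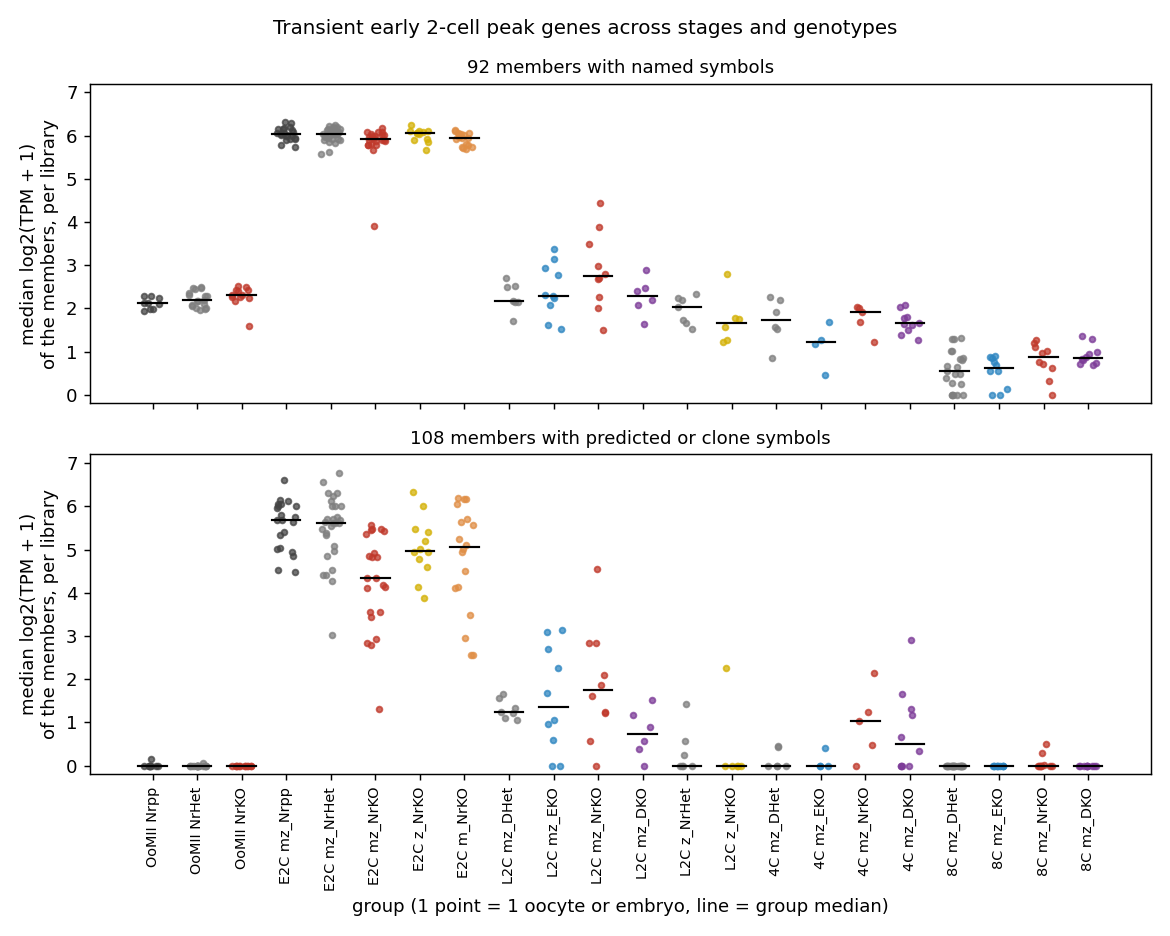
Each point is 1 oocyte or embryo, and the vertical axis is the median log2(TPM + 1) over the 92 members with named symbols (top) or the 108 with predicted or clone symbols (bottom); lines are group medians. Named members stood near 6 in every E2C group, while predicted members had a median of 5.61 in E2C mz_NrHet and 4.34 in E2C mz_NrKO; the low E2C mz_NrKO point in both panels is replicate 1.

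The rise also appeared in oocytes and embryos that had not chosen the members. By limma on log2(TPM + 1), with Benjamini-Hochberg adjustment over all 12045 genes of the fit, all 200 members were higher in E2C mz_NrHet than in OoMII_NrHet, beside 54.9% of all genes tested, and 130 of them did so without overlap between the 2 groups, beside 15.7% of all genes. Their median difference was 3.91 on the log2 scale. Without maternal and zygotic Nr5a2, 198 of the 200 were higher in E2C mz_NrKO than in OoMII_NrKO, beside 48.9% of all genes (20.1% were lower), with a median difference of 3.28; Gm13040 and Gm11236 missed the threshold. Samd10, a SAM-domain protein, had a median of 1.34 TPM in OoMII_NrHet and 146 TPM in E2C mz_NrHet (difference 6.05, SE 0.15, adjusted p = 1.33e-54), and Galm, a galactose mutarotase, had medians of 9.23 and 196 TPM in the same groups. No date in the labels is shared by oocytes and early 2-cell embryos, so date and stage cannot be told apart.

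When both maternal and zygotic Nr5a2 were lost, many members in the position clusters were lower at the early 2-cell stage. Most members outside the clusters did not pass the test. The size of the difference varied between the dates in the labels, and within 1 date most calls were made on 1 August (27 lower, against 4 and 0 on the other dates with both groups). The share of all genes called within 1 date is not given here. In E2C mz_NrKO against mz_NrHet, 51 of 200 members were lower and 0 were higher at an adjusted p under 0.05 (limma, date in the labels as a factor). Over all 13040 genes tested, 4.5% were lower and 0.667% were higher. Without adjustment for multiple tests (p under 0.05), 87 members were lower and 0 higher, beside 2033 and 521 of all 13040 genes. The median over the members was -0.28 on the log2 scale, beside -0.09 over all genes tested. The 16 genes of the burst families that had been left out had a median of -2.01, with 14 lower, and of 268 genes that rose alike but stayed high in the late 2-cell embryo 54 were lower, with a median of -0.17. Neither mz_NrKO nor mz_NrHet was used to choose the members. Where levels of many genes move in 1 embryo, fewer active nuclei and less RNA per nucleus cannot be told apart in these whole-embryo libraries.

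The 51 were not spread evenly over the members. Of the 47 members in the 7 clusters other than that of Duxf3, 29 were lower and all 47 had a negative difference, with a median of -1.72 and a range from -2.97 to -0.62. Of the 150 outside the clusters, 22 were lower, with a median of -0.15. The difference was called for 6 of 7 members of the chromosome 12 cluster and 6 of 7 of the larger chromosome 10 cluster, for 4 of 8 and 3 of 5 in the chromosome 4 clusters, and for 4 of 10 on chromosome 5. By gene structure, 16 of 35 members with 1 annotated exon were lower, 20 of 67 with 2 to 4 exons and 10 of 82 with 5 or more. Since copies can share reads, the 51 entries amount to 46 distinct profiles, and the calls within a cluster are not independent of each other.

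Eif4a3l1 and Eif4a3l2, relatives of the exon junction helicase Eif4a3 and the members with the largest rise, were among those lower. Eif4a3l1 (chr6:136327539-136329983, GRCm38) was listed at 0 in 16 of 18 OoMII_NrHet oocytes. Its lowest, median and highest values were 3.91, 168 and 756 TPM in E2C mz_NrHet and 0, 46.7 and 179 TPM in mz_NrKO. The ranges overlap, and 20 of 22 mz_NrKO embryos lay below the control mean (difference -1.76, SE 0.37, adjusted p = 0.00166 by limma). Eif4a3l2 had 13.0, 217 and 570 TPM in the controls and 2.26, 41.5 and 236 TPM in mz_NrKO (difference -1.99, SE 0.40, adjusted p = 0.00087 by limma). Both had lower medians in mz_NrKO, and the upper part of the mutant range lay within that of the controls. How many control embryos lay below their own mean is not given here, so counts below that mean do not measure separation.

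Of the 29 genes in a list of known 2-cell genes, 9 are members, and 7 of these were lower: Pramef25, BC080695, Gm6763, Gm2022, Gm2016, Gm5039 and Gm4027. Across the whole list, members or not, 16 of 25 genes tested were lower and 0 higher, with a median of -1.48. Pramef25 had 0, 122 and 408 TPM as lowest, median and highest values in mz_NrHet and 0, 25.0 and 145 TPM in mz_NrKO (difference -2.12, SE 0.47, adjusted p = 0.00228 by limma). Gm4027 had 6.74, 126 and 415 TPM in mz_NrHet and 1.06, 24.2 and 90.3 TPM in mz_NrKO, with all 22 mutant embryos below the control mean (difference -2.11, SE 0.40, adjusted p = 5.0e-04 by limma). The other 2 list members were not called. Arg2, the mitochondrial arginase, had medians of 118 and 133 TPM (difference -0.09, SE 0.15), and Duxf3 had 59.0, 251 and 654 TPM in mz_NrHet and 56.8, 339 and 1107 TPM in mz_NrKO (difference 0.27, SE 0.29, adjusted p = 0.665 by limma). Among 18 tested genes of a list of zygotic genome activators and their partners, 0 were lower and 1, the NF-Y subunit Nfya, was higher.

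Among named members outside the clusters the called differences were smaller. Epb41l4a, a band 4.1 protein with a FERM domain, had 47.3, 77.8 and 112 TPM as lowest, median and highest in mz_NrHet and 32.6, 48.7 and 80.3 TPM in mz_NrKO, with 21 of 22 mutant embryos below the control mean (difference -0.48, SE 0.10, adjusted p = 0.000906 by limma). In the authors' deposited table, against mz_Nrpp, its change in mz_NrKO was 0.09 on the log2 scale (FDR 0.907), so that the lower level was not seen against that control. Drr1, annotated as a lincRNA, had medians of 44.5 and 26.3 TPM (difference -1.20, adjusted p = 0.00519 by limma). Dpys, an enzyme of pyrimidine breakdown, Rtl8b, derived from a retrotransposon, and Cd200, a membrane glycoprotein that restrains immune cells, fell by 0.99, 0.88 and 0.72 on the log2 scale. Samd10, the fatty acid elongase Elovl7 and the growth factor receptor Egfr fell by 0.40, 0.42 and 0.45. These smaller calls were not stable: the call ended in 9 of 10 other analyses for Egfr (adjusted p = 0.0435 by limma), in 5 for Rtl8b, in 5 for Elovl7, whose sign also turned in 1 more (0.16 on 14 November alone), in 4 for Cd200, and in the 3 single-date analyses for Drr1, Dpys and Samd10. Without mz_NrKO replicate 1 the Egfr difference was -0.35. In the authors' comparison of mz_NrKO with mz_Nrpp, the FDR was 0.323 for Dpys, 0.836 for Rtl8b and 0.148 for Elovl7. It was 0.00382 for Drr1, 0.0159 for Cd200, 0.00535 for Samd10 and 0.0253 for Egfr.

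The most abundant members did not pass the test. None of the 10 named members with the highest level was called; their differences lay between -0.36 (Pabpc1l) and 0.77 (Mir7035) on the log2 scale. Slc30a3 had 722, 1229 and 1602 TPM as lowest, median and highest in mz_NrHet and 258, 1444 and 1833 TPM in mz_NrKO (difference -0.01, SE 0.09). Mff had 963, 1164 and 1558 TPM in mz_NrHet and 138, 1027 and 1332 TPM in mz_NrKO (difference -0.25, SE 0.10, adjusted p = 0.117 by limma). The lowest mutant value of both genes lies below every control embryo. In the authors' comparison with mz_Nrpp, the change in mz_NrKO was -0.25 for Mff (FDR 0.0026) and -0.09 for Slc30a3 (FDR 0.553). The 128 members outside the clusters that were not called had a median difference of -0.11, with quartiles of -0.26 and -0.02.

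**Figure D2:**
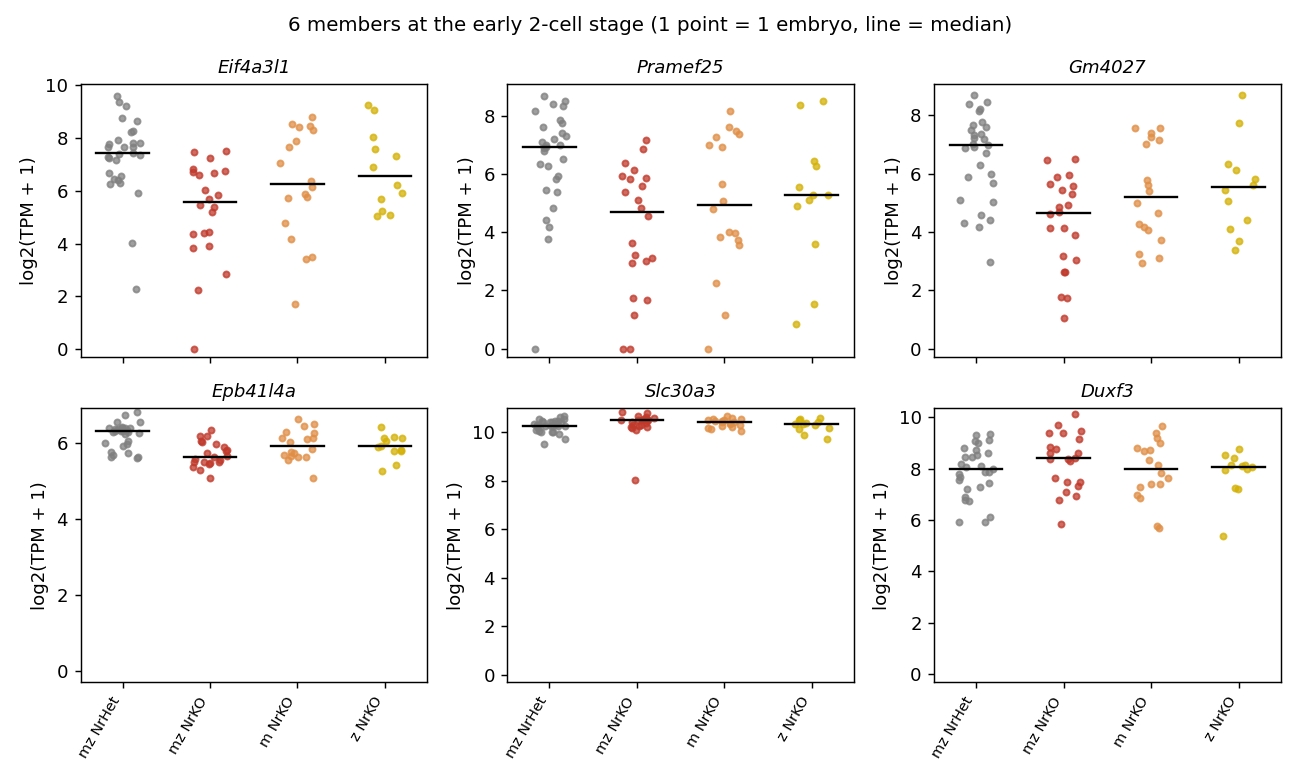
Each point is 1 E2C embryo, the vertical axis is log2(TPM + 1), and lines are group medians for 6 members in mz_NrHet, mz_NrKO, m_NrKO and z_NrKO. The upper genes Eif4a3l1, Pramef25 and Gm4027 spread over many doublings in every group and stand lower in mz_NrKO, while Slc30a3 and Epb41l4a spread less; Duxf3 has the higher median in mz_NrKO, 339 against 251 TPM.

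How much the members in clusters differed varied with the date in the labels and from embryo to embryo. Among the 29 mz_NrHet embryos the median SD of log2(TPM + 1) was 1.81 for members in clusters and 0.51 outside them. On 1 August, with 12 embryos in each group, the 47 cluster members without the Duxf3 cluster had a median difference of -2.20 between mz_NrKO and mz_NrHet, and all 47 were negative. On 7 November, with 8 and 7 embryos, it was -0.82 with 42 negative, and on 14 November, with 2 and 3 embryos, -0.99 with 39 negative. Tested within 1 date alone, the calls on these dates were 27 lower and 1 higher, 4 lower and 5 higher, and 0. On 7 November the 4 lower were Psg17, Pde1b, Eif4a3l2 and Elovl7, so that none of these 47 cluster members was called there. The 5 higher were Vmn2r51, Gbx2 and the 3 members of the Duxf3 cluster. All 9 calls are named here after their values were seen. Psg17, a pregnancy-specific glycoprotein, was higher by 1.47 on 1 August and differed by -2.17 on 7 November. Eif4a3l1 shows the same spread over dates: its median was 125 TPM in mz_NrHet and 19.8 TPM in mz_NrKO on 1 August, and 197 and 108 TPM on 7 November. The 3 members of the Duxf3 cluster had a median difference of -0.35 on 1 August, 1.58 on 7 November and -0.40 on 14 November, so the sign of Duxf3 depends on the date. Without mz_NrKO replicate 1, 44 members were lower and 0 higher in the analysis over all dates, with a median of -0.16. The shares of all genes called within 1 date or without that embryo are not given here. The counts of calls in those analyses therefore cannot be set against all genes.

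Loss of the maternal or the zygotic Nr5a2 alone gave no called member in the test over all dates. In m_NrKO against mz_NrHet 0 of 200 members were called by limma, beside 0.153% lower and 0.092% higher among all genes tested. Without adjustment (p under 0.05) 47 members were below and 6 above, beside 1014 and 724 of all 13040 genes. The median over the members was -0.20. The count of called members was not stable: without mz_NrKO replicate 1, which enters the shared estimate of spread, 8 members were lower in m_NrKO, and on 1 August alone 12 were lower and 1 higher. The shares of all genes called in those fits are not given here. The 47 cluster members had a median difference of -2.17 in m_NrKO on 1 August (7 embryos), -0.40 on 7 November (4 embryos) and 0.57 on 14 November (7 embryos against 3 controls). On the last of these dates 11 of 47 were negative. The direction in m_NrKO therefore differed between dates.

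In z_NrKO against mz_NrHet 0 members were called by limma, beside 0 of all genes tested, and the median over the members was -0.05. Without adjustment (p under 0.05) 16 members were below and 2 above, beside 290 and 411 of all 13040 genes. The cluster members had a median of -0.84 on 1 August (5 embryos) and -0.91 on 11 January (5 embryos against 7). Eif4a3l1 had 2.30, 75.5 and 442 TPM as lowest, median and highest in m_NrKO and 31.7, 95.5 and 608 TPM in z_NrKO, between the medians of mz_NrHet and mz_NrKO. These comparisons share the mz_NrHet embryos, so they are not independent. Directly compared, mz_NrKO and m_NrKO differed in 0 members, beside 0 of all genes called. Without adjustment 16 members were below and 1 above, beside 734 and 184 of all 13040 genes. Between m_NrKO and z_NrKO, Pabpc1l alone was called, beside 0.0153% of all genes lower: it had 29.7, 221 and 452 TPM in m_NrKO and 243, 443 and 687 TPM in z_NrKO (difference -1.13, SE 0.22, adjusted p = 0.0145 by limma). In the authors' deposited comparisons with mz_Nrpp, 52 members were lower and 1 higher in mz_NrKO, at an FDR under 0.1 and a change of 1.5-fold. The counts were 16 and 2 in m_NrKO, and 4 and 1 in z_NrKO. The group mz_Nrpp chose the members, and the share of all genes at these cuts is not given here. These counts therefore have no reading on their own.

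**Figure D3:**
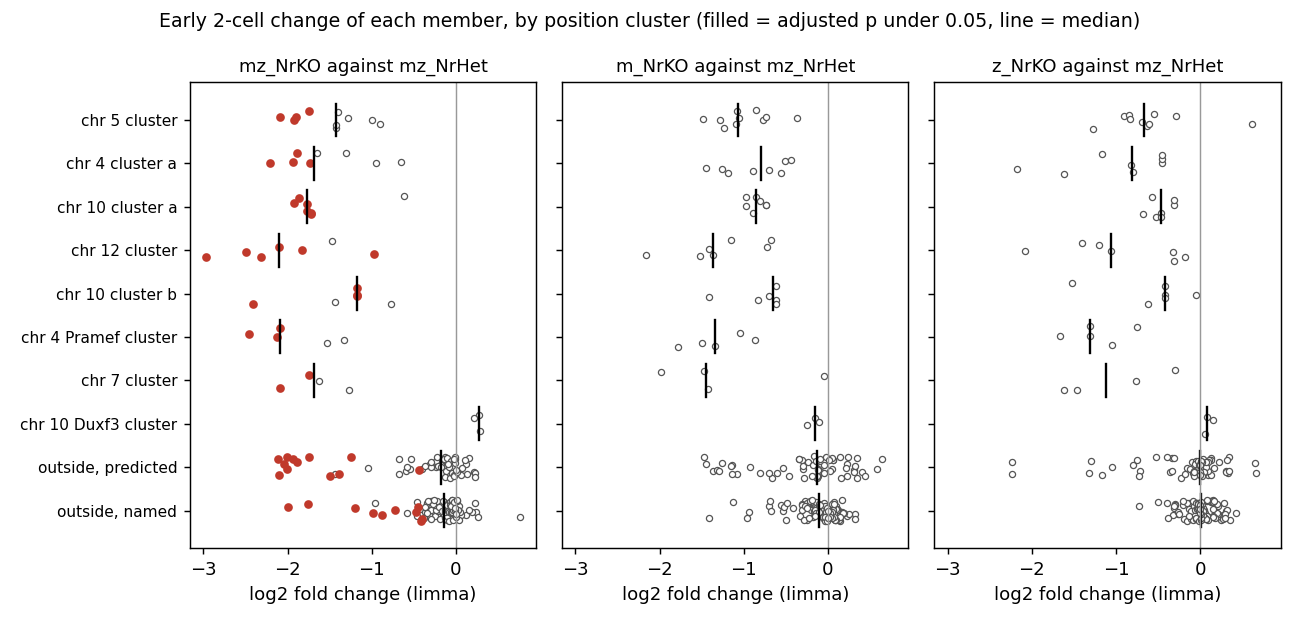
Each point is 1 member, the horizontal axis is its log2 fold change against E2C mz_NrHet by limma, rows are the 8 position clusters and the members outside them, filled points have an adjusted p under 0.05 and short lines are medians. In mz_NrKO every member of the 7 upper clusters lies left of 0 and 29 of the 47 are filled; the Duxf3 cluster lies right of 0 in mz_NrKO, and no point is filled in m_NrKO or z_NrKO.

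After the early 2-cell stage the members were low in the median embryo of every genotype, although single L2C embryos stood high. A test at a later stage covers only members that still reached 5 TPM in a minimum number of libraries, set to the size of the smallest group there. In the median embryo 195 members were above 5 TPM in E2C mz_NrHet, 77 in L2C mz_DHet, 52 in 4C mz_DHet and 24 in 8C mz_DHet. At L2C 144 members were tested, at 4C 111 and at 8C 46; without the mz_NrKO and mz_DKO libraries 123, 54 and 30 would have passed, so part of those tested were let in by the mutants and the counts below describe those members only.

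At L2C 0 members were called in mz_NrKO, mz_EKO or mz_DKO against mz_DHet by limma, beside 0.127%, 0 and 0.141% of all genes lower. Without adjustment (p under 0.05), 1 was below and 13 above the controls in mz_NrKO, 2 and 8 in mz_EKO, and 4 and 3 in mz_DKO, with medians of 0.70, 0.43 and 0.01. Of all 14147 genes, 672 were below and 471 above in mz_NrKO, 517 and 430 in mz_EKO, and 586 and 595 in mz_DKO. Only 2 of the 7 L2C mz_DHet embryos share a date with the mz_NrKO embryos. The summed TPM of the members was 1219 to 2083 in L2C mz_DHet, but reached 16030 in mz_NrKO replicate 6 and 10114 in mz_EKO replicate 9. Gm21818, named here after its values were seen, had 1718 TPM in the first of these embryos and at most 113 TPM in the controls. Without either embryo, 0 members were called in these 3 comparisons, and the mz_NrKO median without its replicate 6 was 0.49.

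At 4C, Arg2 stood out. In mz_NrKO it was the only member called, beside 0.261% of all genes higher and 0.414% lower: its values were 9.31, 13.6, 33.6, 88.3 and 156 TPM in the 5 mz_NrKO embryos, and 1.96, 14.2 and 26.0 TPM as lowest, median and highest in mz_DHet. The groups overlap, and with date as a factor the difference was 2.40 (SE 0.49, adjusted p = 0.0172 by limma). Without mz_NrKO replicate 1 or 2, or without the date factor, it was no longer called. Only 1 of the 6 mz_DHet embryos at 4C is dated 22 May, the date of 3 of 5 mz_NrKO and 3 of 4 mz_EKO embryos. The date-adjusted differences of these 2 groups therefore lean on few controls. In mz_DKO 5 members were higher, beside 0.897% of all genes, and 0 lower, beside 1.68%. Arg2 had 34.6, 76.1 and 174 TPM there, all above the mz_DHet embryos, a separation seen in 0.767% of all genes (difference 2.54, SE 0.39, adjusted p = 0.000396 by limma). Drr1 was higher by 2.39 (SE 0.52, adjusted p = 0.00989 by limma), with a median of 11.4 TPM against 1.19; no mz_DHet or mz_EKO embryo reached 5 TPM, so it was tested only because the mutants were high. The remaining 3 are Gm21293, Gm6763 and Gm8764 of the larger chromosome 10 cluster, the last 2 with identical values. In mz_EKO, where Arg2 had 12.3, 20.0, 26.3 and 43.1 TPM, its fitted difference was 2.02 (SE 0.54), close to that of mz_NrKO, but was not called (adjusted p = 0.655 by limma). In this comparison 0 members were called, beside 0 of all genes. Without adjustment 3 members were below and 3 above, beside 396 and 407 of all 13044 genes.

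From L2C to 8C the members went on falling in the controls. Of 178 members tested in mz_DHet, 92 were lower at 8C and 1 was higher, beside 35.6% lower and 14.8% higher among all genes tested. Only 2 of the 7 L2C mz_DHet embryos share a date, 8 March, with 8C mz_DHet embryos. These date-adjusted differences therefore lean on few L2C controls. Pik3cd fell from a median of 46.1 to 1.96 TPM (difference -3.94, SE 0.46, adjusted p = 1.42e-12 by limma), and Rnf24 from 41.3 to 3.72 TPM. Egfr fell from 7.31 TPM to a median of 0. The exception was Elp3, the catalytic subunit of the Elongator complex. It had 0, 5.43 and 9.25 TPM as lowest, median and highest at L2C and 12.3, 47.6 and 74.3 TPM at 8C, with no overlap, as for 15.5% of all genes (difference 4.21, SE 0.53, adjusted p = 2.91e-11 by limma). The members with the highest 8C mz_DHet means were Apoo, a protein of mitochondrial cristae, with 49.6 TPM, Elp3 with 45.7, Mff with 45.0, Dync1i2 with 36.5, Rras2 with 35.2 and Dym with 27.0. At L2C, Mff, Dync1i2, Dym and Eif4a3l1 led among the named members with 77.1, 67.4, 61.9 and 56.9 TPM.

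At 8C some members were higher and a few lower in embryos without Nr5a2, whereas Esrrb loss alone changed none past the threshold. In mz_NrKO against mz_DHet 13 of the 46 members tested were higher and 3 lower by limma, beside 14.1% and 14.2% of all genes. In mz_DKO 14 were higher and 8 lower, beside 18.9% and 14.8%. In mz_EKO 0 were called, beside 0.00919% of all genes lower. Without adjustment 0 members were below and 1 above in mz_EKO, beside 148 and 109 of all 10876 genes. The 3 comparisons share the 21 mz_DHet embryos. Since 16 of the 46 tested members passed the filter only with the mz_NrKO and mz_DKO libraries, the share of members higher has no reading against the share of all genes. Of the 13 higher in mz_NrKO 11 entered in this way, and of the 14 in mz_DKO also 11. All 3 and 8 lower members passed the filter on the mz_DHet and mz_EKO libraries alone. Those include the controls in which they were higher, and Car9 reached 5 TPM in 11 of these libraries, with 10 needed. The share of members lower therefore has no reading against the share of all genes either. With no filter on level, 185 members were tested, of which 19 were higher and 3 lower in mz_NrKO and 27 and 7 in mz_DKO. The share of all genes called without the filter is not given here, so these counts cannot be set against it.

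Arg2, 1 of those that entered through the mutants, was again high: it had 0, 2.46 and 23.6 TPM as lowest, median and highest in 8C mz_DHet, 0, 1.86 and 6.23 TPM in mz_EKO, 2.28, 42.3 and 151 TPM in mz_NrKO and 2.16, 28.7 and 65.0 TPM in mz_DKO. The differences from mz_DHet were 2.77 (SE 0.51, adjusted p = 4.2e-05) in mz_NrKO and 2.93 (SE 0.52, adjusted p = 1.2e-05) in mz_DKO by limma. In the reads with molecular identifiers, a separate table for these stages, they were 3.04 and 2.46, both called. Dym, already abundant in controls with 11.8, 27.1 and 42.3 TPM, had 27.1, 70.4 and 119 TPM in mz_DKO (difference 1.16, SE 0.18, adjusted p = 7.7e-07 by limma) and was higher by 0.67 in mz_NrKO. Slc30a3 was higher by 1.23 in mz_NrKO and 1.57 in mz_DKO, at medians of 5.18 and 7.41 TPM against 1.80 in the controls, far below its early 2-cell level.

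The lower members were Car9, a carbonic anhydrase, Asgr2, a subunit of the asialoglycoprotein receptor, and Prr5, a partner of the mTORC2 kinase complex, in both mz_NrKO and mz_DKO. Prr5 had 3.78, 22.0 and 48.3 TPM in 8C mz_DHet, 1.24, 3.55 and 16.9 TPM in mz_NrKO and 2.33, 7.04 and 16.4 TPM in mz_DKO (differences -1.56 and -1.40). Car9 was listed at 0 in 8 of 10 mz_NrKO embryos and in 6 of 10 mz_DKO embryos, but in 1 of 21 mz_DHet embryos, whose median was 2.60 TPM (differences -1.96 and -1.45). Asgr2 had medians of 6.54 TPM in mz_DHet, 1.69 in mz_NrKO and 0.828 in mz_DKO (differences -1.82 and -1.86). In mz_DKO the lipoyltransferase Lipt1 fell by 1.48 and Elp3 by 0.93, the latter with 10.8, 26.4 and 36.6 TPM against 12.3, 47.6 and 74.3 TPM in the controls.

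**Figure D4:**
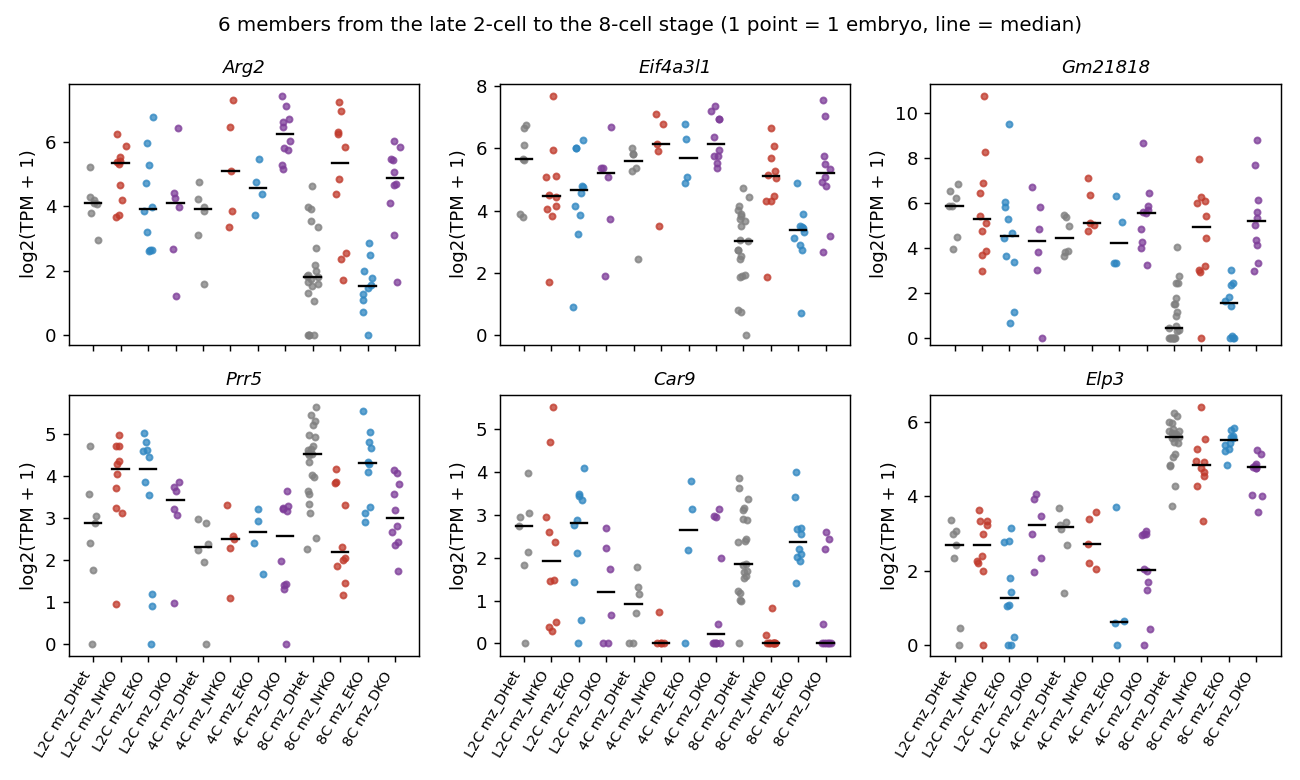
Each point is 1 embryo, the vertical axis is log2(TPM + 1), lines are group medians, and groups run from L2C to 8C within each of 6 members. At 8C, Arg2, Eif4a3l1 and Gm21818 are high in mz_NrKO and mz_DKO and low in mz_DHet and mz_EKO, Prr5 and Car9 show the opposite, and the Elp3 medians are higher at 8C than at L2C in mz_DHet and each mutant.

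A few members were called in mz_NrKO both at E2C and at 8C. Of the 46 members tested at both stages these were 5, Eif4a3l1, Epb41l4a, Pramef25, Gm11236 and Gm21818, and each was lower at E2C and higher at 8C. Over all 8497 genes tested at both stages, 186 were called at both and 132 (1.55%) were lower at E2C and higher at 8C. The share among members has no reading against this, because of the 5 only Eif4a3l1 would have passed the 8C filter without the mz_NrKO and mz_DKO embryos; the other 4 could enter only by being high there. The controls also differ, mz_NrHet at E2C and mz_DHet at 8C. Eif4a3l1 had 0, 7.13 and 25.2 TPM as lowest, median and highest in 8C mz_DHet, 2.63, 33.3 and 99.7 TPM in mz_NrKO and 5.33, 36.2 and 188 TPM in mz_DKO (differences 2.14, SE 0.47, and 2.16, SE 0.48). Epb41l4a had 8C medians of 1.42 TPM in mz_DHet and 5.53 in mz_NrKO, and Pramef25 had medians of 0 and 4.34 TPM. The median 8C levels of these 3 genes in mz_NrKO stayed below their E2C medians in mz_NrHet.

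**Figure D5:**
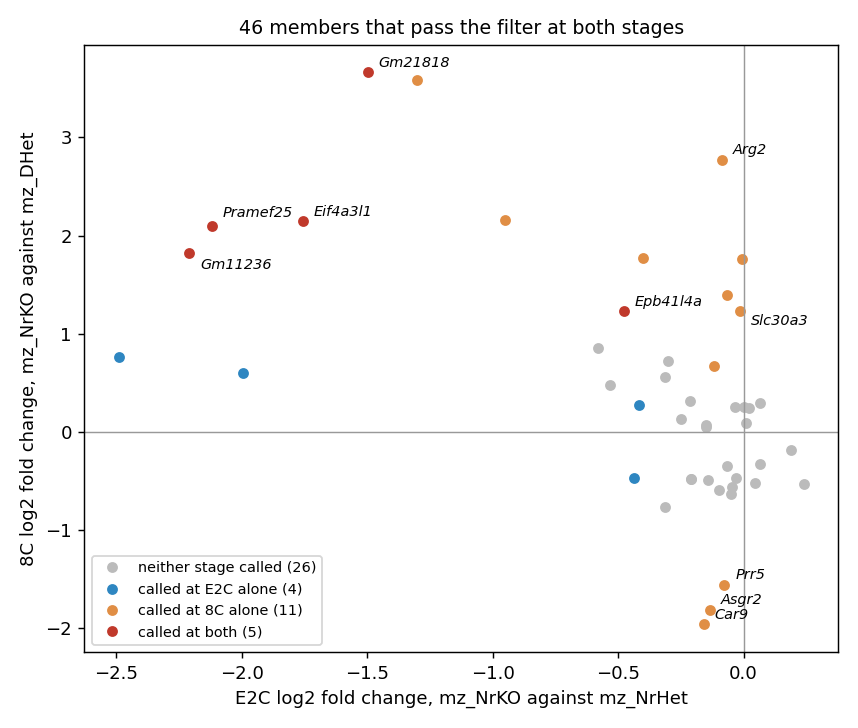
Each point is 1 of the 46 members tested at both stages, with the log2 fold change of E2C mz_NrKO against mz_NrHet on the horizontal axis and that of 8C mz_NrKO against mz_DHet on the vertical axis; colours give the stages at which a member was called by limma. The 5 members called at both stages lie upper left, and Prr5, Asgr2 and Car9 lie near 0 at E2C and below -1.5 at 8C.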

How the data were processed

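Single mouse oocytes and embryos were profiled by RNA-seq, and the authors deposited TPM values per gene and library, 1 table of full-length reads and 1 of reads with molecular identifiers (L2C to 8C). The submitters' processing notes name cutadapt, STAR, RSEM and DESeq2 and the build mm10; versions and counting of multi-mapping reads are not given in the sources used here. The authors' deposited comparisons hold log2 fold changes and FDR values against E2C mz_Nrpp; per the file headers, their calls need TPM above 10 in at least 1 sample, a 1.5-fold change and an FDR under 0.1.

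Here limma 3.58.1 (limma-trend, R 4.3.3) was fitted to log2(TPM + 1) over all groups of a stage, with the date in the labels as a factor (except oocyte against E2C) and Benjamini-Hochberg adjustment over all genes tested at a threshold of 0.05. A gene was tested when it reached 5 TPM in at least 12, 6, 4 or 10 libraries at E2C, L2C, 4C or 8C. Fold changes on this scale understate those of low genes. Nothing in the labels says that embryos of a group came from separate litters, and p-values rest on embryo-to-embryo spread, which may be partly technical. TPM keeps no read depth, so no counting interval can be given.

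The members and gene lists were chosen with earlier results of these data known. Named genes were the 10 named and 3 predicted members with the highest E2C mz_NrHet mean, the called members without predicted symbols with the smallest adjusted p (10 each way in E2C mz_NrKO, 4 each way elsewhere), the highest at L2C and 8C, and genes of the 2-cell list; some genes that the rule names are not reported here. Replicate numbers do not pair embryos: same-numbered deviations had a median r of 0.05 in E2C mz_NrKO, with 6 of 22 pairs over 0.1. In simulated data for E2C mz_NrKO with 13040 genes, 68.0% of 2-fold and 95.1% of 4-fold changes were recovered; for 8C mz_NrKO with 10876 genes, 45.2% and 87.5%.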

Additional observations from a re-analysis of the deposited data

Results flagged for a closer look

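Of 49 groups of values tested for a sample far from the others by Dixon's criterion, 8 held one. Chance gives about 1 in 20 for normally distributed values, which TPM sums and single-gene TPM need not be. Some tests share embryos, so the 8 cannot be set against that rate. Larger groups, among them all E2C groups, were not tested. At L2C the summed TPM of the members was 16030 in mz_NrKO replicate 6, where the next embryo had 5043, and 10114 in mz_EKO replicate 9, where the next had 3622. Gm21818 was at 1718 and 721 TPM in these embryos, against at most 113 TPM in L2C mz_DHet, and the burst families left out of the members summed to 1451 and 1099 TPM, against at most 293 TPM in the controls. In L2C z_NrKO, replicate 1 had a summed TPM of 2211 and a member median of 2.50 on the log2 scale. In 8C mz_DKO, replicate 3 had a summed TPM of 3627, with Gm21818 at 446 TPM, where the next embryo had 1855. The lowest member median in OoMII_Nrpp was 0.51 (replicate 6), that of 8C mz_EKO replicate 1 was 0.16 while all others of that group were at 0, and Car9 in 8C mz_NrKO replicate 1 was at 0.780 TPM in a group otherwise at or near 0.

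A limma fit over both stages, added after the data were seen, tested whether the mz_NrKO effect differed between E2C and 8C. Of the 46 members tested at both stages, 17 were higher and 4 lower at 8C relative to E2C at an adjusted p under 0.05, beside 13.7% and 9.31% of the 8497 genes tested at both. The filter let in members high in the 8C mutants, so the share higher has no reading. Members high in the 8C controls could enter in the same way, so the share lower has none either. Among the members whose 8C values are given above, the 8C effect minus the E2C effect was 2.86 for Arg2, 0.78 for Dym and 1.25 for Slc30a3, and it was -1.80 for Car9, -1.68 for Asgr2, -1.48 for Prr5 and -0.77 for Elp3. For Eif4a3l2 it was 2.59, from effects of -1.99 at E2C, which was called, and 0.59 at 8C, which was not. For the 5 members called at both stages it was 5.16 (Gm21818), 4.22 (Pramef25), 4.04 (Gm11236), 3.90 (Eif4a3l1) and 1.70 (Epb41l4a); having opposite calls, these had to differ. The stages have different controls, mz_NrHet and mz_DHet, so stage and control genotype cannot be told apart.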

How the results depend on the processing

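Over the alternatives, 129 counts of called members stayed within 1.5 times the value reported and 36 did not, while values of named genes kept direction and call 314 times, lost the call 49 times and reversed once (Elovl7, 0.16 on 14 November alone). In E2C mz_NrKO the 51 calls became 28 on 1 August alone, 9 on 7 November and 0 on 14 November, where 2 and 3 embryos limit the test, and 34 to 55 elsewhere. With the replicate number as a block (replicate block), the counts were 37 in E2C mz_NrKO, 0 in 4C mz_NrKO and 3 in 4C mz_DKO; the numbers do not pair embryos. In E2C m_NrKO the 0 calls became 2 with no date factor, 7 with median-of-ratios scaling, 8 without mz_NrKO replicate 1, and 13 and 9 on 1 August and 7 November alone. Between m_NrKO and z_NrKO the 1 call became 2 with median-of-ratios scaling or without mz_NrKO replicate 1, and 0 on 1 August alone. L2C mz_NrKO gave 4 calls with no date factor. The 1 call in 4C mz_NrKO became 0 with no filter, no date factor or the reads with molecular identifiers, and 0 to 3 leaving out 1 mz_EKO or mz_NrKO embryo. The 5 calls in 4C mz_DKO became 2 with a pseudocount of 0.1, no filter or a filter at 1 TPM, 3 with no date factor or median-of-ratios scaling, 1 with molecular identifiers, and 3 to 8 leaving out 1 such embryo. With molecular identifiers, a table of 5 mz_NrKO, 9 mz_DKO and 16 mz_DHet embryos at 8C, so that read type and number of embryos change together, 8C mz_NrKO gave 8 calls instead of 16, mz_DKO 11 instead of 22, and 8C against L2C 34 instead of 93; with no filter 8C mz_DKO gave 34. The cause of these shifts was not tested, and the shares of all genes called under the alternatives are not given here. Leaving out the high L2C and 8C embryos, the single dates for z_NrKO and 8C, and the test between stages were chosen after seeing the data.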
